A study of Mus musculus with 6 samples.

Results

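The heat shock proteins and their cochaperones were examined in the kidneys of diabetic mice through 10 genes: Hspb1, Cryab, Hspa1a, Hspa1b, Bag3, Hsp90aa1, Dnajb1, Hsph1, Hspa8 and Hspd1. They were found by gene symbol among the 55401 genes of the deposited tables, and all 10 were among the 17194 genes with enough counts to be tested. RNA selected by its poly(A) tail was sequenced from whole kidney of mice given streptozotocin, which kills the insulin-producing beta cells and leaves the animal with type 1 diabetes. 3 libraries came from WT/Sed mice (genotype WT) and 3 from Cdo1KKO/Sed mice (genotype Cdo1KKO), each labelled as a biological replicate, and both groups were diabetic. The stated aim concerned the pathways that depend on Cdo1, the cysteine dioxygenase gene, in the renal tubule. Sed is not spelled out in the labels, which give no age, no sex and no promoter or Cre for the Cdo1KKO genotype.

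Heat shock proteins are molecular chaperones: they hold unfolded proteins in solution, refold them with ATP, or hand them on for degradation. Small heat shock proteins bind unfolding clients without ATP, HSP70 proteins fold them with the help of J-domain proteins and nucleotide exchange factors, and HSP90 and chaperonins act on later or special clients. Heat shock factor 1 (HSF1) switches on the inducible members by binding repeats of nGAAn in their promoters, while constitutive members are made in unstressed cells. In the kidney, cells of the medulla hold high levels of several of these proteins, where salt and urea are concentrated.

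The depth of a library ran from 28145261 to 43872779 counts. Levels below are in CPM, counts relative to library size scaled by the trimmed mean of M values (TMM), which sets the bulk of genes to no change, and each log2 fold change sets Cdo1KKO/Sed over WT/Sed, with its SE. The words rose and fell are kept for genes that passed edgeR's quasi-likelihood test at a Benjamini-Hochberg adjusted p under 0.05 over all tested genes. Cdo1 itself fell (log2 fold change -0.74 ± 0.06, adjusted p = 4.64e-06) and was still counted in every library, at 103 to 118 CPM in Cdo1KKO/Sed against 180.5 to 191 CPM in WT/Sed. Markers of the proximal tubule were abundant in both groups, summing to 49455 to 55387 CPM in WT/Sed and 32056 to 35646 CPM in Cdo1KKO/Sed, and all 10 of them fell. WT/Sed libraries differed more among themselves than Cdo1KKO/Sed libraries did, with a chi-square per degree of freedom of 11.7 to 36.7 against 3.39 to 7.33 over pairs of libraries.

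The 10 genes did not move in 1 direction. 5 rose (Hspb1, Hspa1b, Hspa1a, Bag3 and Hsp90aa1), 4 fell (Cryab, Hsph1, Hspa8 and Hspd1), and Dnajb1 was not called. Among all tested genes, 18.9% rose and 18.5% fell. Other scalings used below shifted these counts. With library size alone 5513 of the 17194 genes were called higher and 1685 lower. With limma on log2(TPM + 1) of the deposited TPM values, 6784 were called higher and 1246 lower. With TMM, the calls in either direction came to 9 of 10, where 37.4% of all tested genes and 49.0% of those with a mean of at least 10 CPM were called. The groups did not overlap in the same 9 genes, 5 higher and 4 lower, while 50.3% of all tested genes showed no overlap. The median log2 fold change was 0.12 for the 10 genes and 0.01 for all tested genes, and the median size of the change without its sign was 0.39 against 0.29. As the 10 genes were picked with results from these libraries known, these counts describe them and carry no test of the group.

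**Figure D1:**
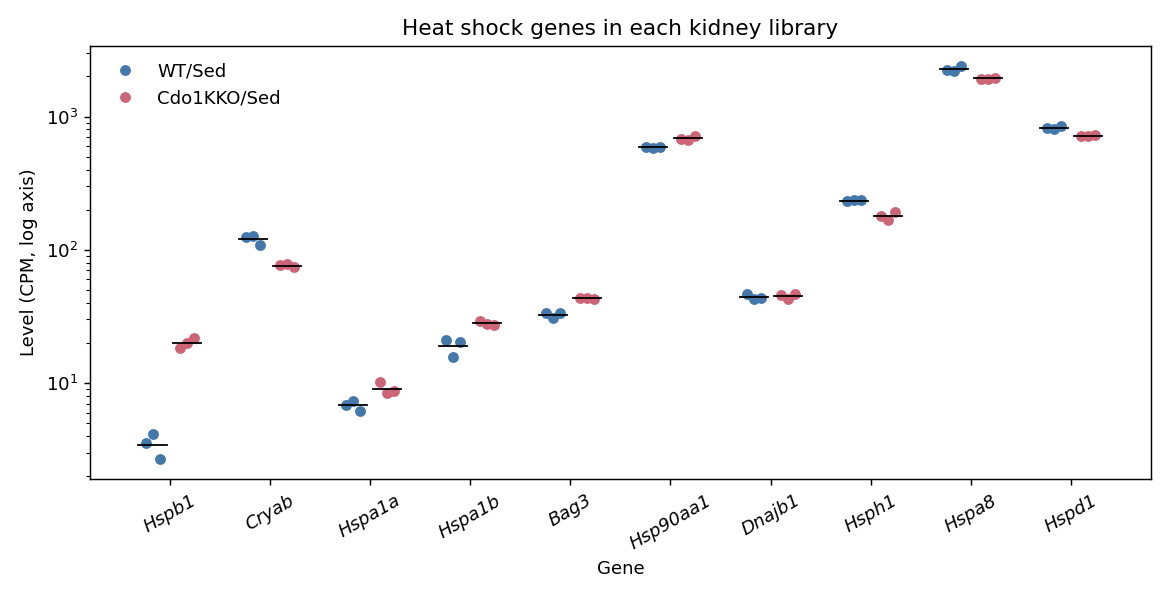
Level of each of the 10 genes in each library, in CPM on a log axis, with WT/Sed in blue, Cdo1KKO/Sed in red and the group mean as a black line. Hspb1 shows the widest gap, from 2.68 to 4.12 CPM in WT/Sed to 18.4 to 21.8 CPM in Cdo1KKO/Sed, and Dnajb1 shows overlapping groups.

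Hspb1 (ENSMUSG00000004951.10), the small heat shock protein HSP27 in human and HSP25 in mouse, which also caps actin filaments, changed most of the 10. Its level was 3.57, 4.12 and 2.68 CPM in WT/Sed and 18.4, 20.02 and 21.8 CPM in Cdo1KKO/Sed. Every Cdo1KKO/Sed library thus lay above every WT/Sed library. The difference was 5.87-fold (log2 fold change 2.55 ± 0.15, adjusted p = 3.47e-07), and 1.79% of tested genes had a larger change in either direction. Leaving out any single library left it between 2.39 and 2.69.

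Hspb1 has 3 exons and spans 135887919 to 135889563 of chromosome 5, plus strand (GRCm38, from GENCODE M21 like the positions that follow). Its upstream sequence is shown because the gene moved most and because this stretch holds a pair of the repeats that HSF1 is known to bind. The 150 bases before its start (RefSeq, GRCm38.p6, plus strand, chr5:135887769-135887918) read as follows, with each GAANNTTC element, where N is any base, in capitals.
Hspb1: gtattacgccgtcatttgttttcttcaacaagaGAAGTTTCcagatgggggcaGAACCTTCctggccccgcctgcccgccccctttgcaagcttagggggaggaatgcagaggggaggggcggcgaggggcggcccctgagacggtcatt
The elements start 117 and 97 bases before the start of the transcript.

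Cryab (ENSMUSG00000032060.10), alphaB-crystallin, is also a small heat shock protein and forms mixed assemblies with Hspb1, but its transcript went the other way. Its level was 126, 127 and 109 CPM in WT/Sed and 76.3, 78.0 and 74.3 CPM in Cdo1KKO/Sed. The WT/Sed libraries were all higher, and the difference was -0.66 ± 0.06 on the log2 scale (adjusted p = 1.48e-05), with -0.74 to -0.62 when 1 library was left out. Cryab is on the plus strand of chromosome 9, from 50751325 to 50756636, with 4 exons, and overlaps Hspb2 on the other strand by 1030 bases. Hspb2 held 95 counts over all libraries against 21787 for Cryab. Cryab is known for its abundance in the kidney medulla, and the 7 markers of collecting duct and inner medulla summed to 549.5 to 566 CPM in WT/Sed and 313 to 323 CPM in Cdo1KKO/Sed. Of these, Aqp2 and Aqp3, the water channels of the collecting duct, fell, 5 were not called and none rose. The thin limb list moved alike, from 684 to 874 CPM to 398 to 413 CPM, with Aqp1 lower and Cldn4 higher among its 5 tested genes. Markers of the thick ascending limb, which runs partly through the medulla, went the other way, from 2364 to 3163 CPM to 4015 to 4256 CPM. There Umod, Slc12a1 and Kcnj1 rose, Cldn16 fell and Cldn10 was not called. The part of these cells in the fall of Cryab was not tested, and in bulk tissue fewer cells of a type and less RNA per cell cannot be told apart.

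Per transcript length, in the TPM values that the authors deposited, Hspb1 stood at 4.08%, 4.64% and 3.51% of the Cryab level in WT/Sed and at 34.5%, 36.8% and 42.1% in Cdo1KKO/Sed. The groups lay far apart. The ratio was 9.30-fold higher in Cdo1KKO/Sed, a difference of 3.22 in the log2 ratio. An exact two-sided permutation test gave p = 0.1, the smallest that 3 libraries against 3 can give, and 0.125 after adjustment over the 5 ratios compared in all.

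Of 7 other small heat shock protein genes tested, 2 rose and none fell in edgeR. DESeq2, limma-voom, an unadjusted p under 0.05 and library size alone gave the same counts. In log2(TPM + 1) 3 rose and none fell, with Hspb11 called higher as well. With TMM, 18.9% of all 17194 tested genes rose and 18.5% fell. With library size alone 5513 of them rose, and in log2(TPM + 1) 6784. Hspb8, the partner of Bag3 in sorting clients to autophagy, was at 6.71, 5.17 and 5.33 CPM in WT/Sed and 15.8, 17.8 and 16.9 CPM in Cdo1KKO/Sed. Its libraries did not overlap (log2 fold change 1.55 ± 0.12, adjusted p = 3.17e-06). Hspb6, known from muscle, rose as well, by 0.51 ± 0.11, from 7.84, 8.51 and 7.35 CPM to 11.8, 11.4 and 10.6 CPM (adjusted p = 0.00326). The next smallest p were those of Cryaa of the lens and Hspb2 (adjusted p = 0.515 and 0.675), which stayed below 1 CPM in every library.

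Hspa1a (ENSMUSG00000091971.3) and Hspa1b (ENSMUSG00000090877.3) encode the inducible HSP70, which is made in small amounts until cells are stressed. They are single-exon genes on the minus strand of chromosome 17, at 34969190 to 34972156 and 34956436 to 34959238, with 9951 bases between them. Hspa1b was at 21.2, 15.7 and 20.5 CPM in WT/Sed and 29.4, 27.5 and 27.2 CPM in Cdo1KKO/Sed, and Hspa1a at 6.86, 7.31 and 6.18 CPM and 10.2, 8.38 and 8.68 CPM. Both were higher in all 3 Cdo1KKO/Sed libraries. Hspa1b rose by 0.55 ± 0.10 (adjusted p = 0.00187) and Hspa1a by 0.42 ± 0.13 (adjusted p = 0.0218). The call for Hspa1a was lost when WT/Sed replicate 1 or 3 or Cdo1KKO/Sed replicate 1 or 3 was left out, with adjusted p of 0.0698, 0.0501, 0.110 and 0.0565.

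The 2 genes are near copies, and how the authors' counting divided reads between them is not given in the sources used here. Their longest transcripts share a run of 638 identical bases and were 85.5% identical over the alignment. Added together before the test, they rose by 0.52 ± 0.08 (adjusted p = 0.000551), and that call held without any single library. The share of Hspa1a in their joint counts was 24.5%, 31.7% and 23.2% for the WT/Sed libraries, against 25.8%, 23.3% and 24.2% for Cdo1KKO/Sed, so the split overlapped between groups (exact two-sided permutation p = 0.7).

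The likeness extends into the promoters, which is why both are shown: 296 of 300 bases of the RefSeq windows, from 250 before to 50 after the start, were identical. The last 150 bases before each start (GRCm38.p6, minus strand, chr17:34972157-34972306 and chr17:34959239-34959388) each hold 1 GAANNTTC element, in capitals, which starts 104 bases before the start.
Hspa1a: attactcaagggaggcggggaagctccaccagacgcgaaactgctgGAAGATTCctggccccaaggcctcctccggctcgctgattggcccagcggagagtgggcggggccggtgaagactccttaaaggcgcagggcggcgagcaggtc
Hspa1b: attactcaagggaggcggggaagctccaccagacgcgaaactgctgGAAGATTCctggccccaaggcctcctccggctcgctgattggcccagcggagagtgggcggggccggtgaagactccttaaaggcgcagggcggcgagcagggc
A CCAAT box on the opposite strand lies 67 bases before the start in both.

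Hspa8 (ENSMUSG00000015656.17), the constitutive HSP70 known as HSC70, was the most abundant of the 10 genes. It was at 2237, 2200.4 and 2410.3 CPM in WT/Sed and 1929, 1906 and 1961 CPM in Cdo1KKO/Sed. No Cdo1KKO/Sed library reached the lowest WT/Sed library, and the gene fell by 0.24 ± 0.05 on the log2 scale (adjusted p = 0.00248). The size of this fall was set by the scaling. With library size alone it was -0.07 (adjusted p = 0.237), and in the deposited TPM values, tested with limma on log2(TPM + 1), the sign turned, at 0.01 (adjusted p = 0.848).

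The balance of inducible to constitutive HSP70 does not depend on scaling between libraries, since both are read in the same library. In TPM, Hspa1a and Hspa1b together were 1.90%, 1.58% and 1.68% of Hspa8 in WT/Sed against 3.10%, 2.85% and 2.77% in Cdo1KKO/Sed. The groups did not overlap, with a ratio 1.70-fold higher in Cdo1KKO/Sed (exact two-sided permutation p = 0.1, adjusted 0.125). Among 8 other HSP70 and HSP110 genes tested, 1 rose with TMM, the ribosome-linked Hspa14 (0.26 ± 0.07, adjusted p = 0.0129), and none fell in edgeR, in DESeq2 or at an unadjusted p under 0.05. The call for Hspa14 was lost when WT/Sed replicate 1 (adjusted p = 0.0564) or Cdo1KKO/Sed replicate 3 (0.0612) was left out. At an unadjusted p under 0.05 there were 2 rises. With library size alone 4 of the 8 genes rose and in log2(TPM + 1) 4, where 5513 and 6784 of all 17194 tested genes rose. Next by p came Hspa4l, a relative of HSP110 (0.20 ± 0.09, adjusted p = 0.105), Hspa9, the mitochondrial HSP70 (-0.13 ± 0.06, adjusted p = 0.122), and Hspa2, known from the testis (-0.25 ± 0.14, adjusted p = 0.176), none of them called. Hspa4l was called higher lacking WT/Sed replicate 3 (adjusted p = 0.0055), and Hspa9 lower lacking WT/Sed replicate 2 (0.00396).

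Hsph1 (ENSMUSG00000029657.15) encodes HSP110, an exchange factor that drives ADP off HSP70 and helps to dissolve aggregates. It was at 231, 235 and 235 CPM in WT/Sed and 180.4, 167 and 192 CPM in Cdo1KKO/Sed. The WT/Sed libraries lay close together and above all Cdo1KKO/Sed libraries, and the gene fell by 0.38 ± 0.06 (adjusted p = 0.000393). With log2(TPM + 1) the difference was -0.13 and the call was lost (adjusted p = 0.133), while with library size alone it was kept (-0.21, adjusted p = 0.0145). Hsph1 has 19 exons and spans 149614287 to 149636376 of chromosome 5, minus strand. It is of interest beside the genes that rose because it holds a 3-unit element, GAA and TTC alternating at a spacing of 2 bases, as 0.603% of 32851 RefSeq windows did. The element begins 36 or 15 bases after the RefSeq start, depending on the start taken. The stretch around it (GRCm38.p6, minus strand, chr5:149636279-149636308) is shown with the element in capitals.
Hsph1: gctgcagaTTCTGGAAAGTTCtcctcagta

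Bag3 (ENSMUSG00000030847.8), a nucleotide exchange factor that ties HSP70 to small heat shock proteins and to autophagy, was at 33.4, 30.5 and 33.8 CPM in WT/Sed and 43.4, 43.4 and 42.9 CPM in Cdo1KKO/Sed. The 3 Cdo1KKO/Sed libraries differed by less than 1 CPM and all lay above WT/Sed. Bag3 rose by 0.41 ± 0.06 (adjusted p = 0.000432), and kept its call without any single library, at 0.36 to 0.43. It lies on the plus strand of chromosome 7, from 128523616 to 128546981, with 4 exons. A GAANNTTC element begins 42 bases after its RefSeq start and is shown in capitals at the end of this stretch (GRCm38.p6, plus strand, chr7:128523603-128523632). Like the element shown for Hsph1, it is placed beyond the start, whereas those shown for Hspb1, Hspa1a and Hspa1b lie before it.
Bag3: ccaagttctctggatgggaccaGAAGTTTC

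Bag1, which links HSP70 to the proteasome, was at 181, 168 and 201 CPM in WT/Sed and 163, 169.5 and 157 CPM in Cdo1KKO/Sed, and was not called (-0.17 ± 0.07, adjusted p = 0.0675), though it was called lower when WT/Sed replicate 2 was left out (adjusted p = 0.0021). In TPM, Bag3 was 9.70%, 9.54% and 8.85% of Bag1 in WT/Sed against 14.004%, 13.5% and 14.4% in Cdo1KKO/Sed. The ratio was 1.49-fold higher, without overlap (exact two-sided permutation p = 0.1, adjusted 0.125). Of 8 genes tied to Bag3-directed autophagy, 3 rose with TMM: Hspb8, Sqstm1 and Synpo2. Among all tested genes 18.9% rose and 18.5% fell. With library size alone 5 of the 8 were called higher and none lower, and in log2(TPM + 1) 6 higher and none lower. Of all 17194 tested genes, 5513 and 6784 were called higher under these scalings, and 1685 and 1246 lower. Sqstm1, the cargo receptor p62, was at 579, 574 and 604 CPM and at 683, 691 and 684 CPM (0.23 ± 0.05, adjusted p = 0.00259), and Synpo2, an actin-linked partner of Bag3, rose from 0.389 to 1.28 CPM to 2.94 to 3.42 CPM (1.72 ± 0.36, adjusted p = 0.00374). Stub1, the ubiquitin ligase CHIP, fell by 0.28 ± 0.09 (adjusted p = 0.0289), a call lost with library size alone (adjusted p = 0.344), in log2(TPM + 1) (0.790), and when WT/Sed replicate 1 (0.123) or Cdo1KKO/Sed replicate 1, 2 or 3 (0.109, 0.0520 and 0.0804) was left out. Bag2, an inhibitor of CHIP, was the 1 gene of 12 exchange factors and regulators that rose with TMM (13.7, 12.6 and 14.6 CPM to 22.05, 21.2 and 23.7 CPM, 0.71 ± 0.09, adjusted p = 8.38e-05), and 3 fell, Grpel2, St13 and Stub1. With library size alone 3 of the 12 rose and 1 fell, and in log2(TPM + 1) 4 rose and none fell. These stand beside the counts over all tested genes given above. St13, which fell by 0.20 ± 0.06 (adjusted p = 0.0265), lost its call with library size alone (0.701), in log2(TPM + 1) (0.559), and lacking WT/Sed replicate 1 (0.0845) or Cdo1KKO/Sed replicate 1, 2 or 3 (0.112, 0.0762 and 0.0728).

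Dnajb1 (ENSMUSG00000005483.10), the inducible HSP40 that delivers clients to HSP70, did not follow the inducible HSP70. It was at 46.3, 42.7 and 43.8 CPM in WT/Sed and 45.5, 42.7 and 46.2 CPM in Cdo1KKO/Sed, so the groups overlapped. The difference was 0.02 ± 0.06 (adjusted p = 0.853). Its sign depended on single libraries (-0.01 without WT/Sed replicate 2 and -0.01 without Cdo1KKO/Sed replicate 3), and under other scalings it was called as higher, at 0.19 with library size alone (adjusted p = 0.0329) and 0.26 in log2(TPM + 1) (adjusted p = 0.0102). Dnajb1 is on the plus strand of chromosome 8, from 83608193 to 83612653, with 3 exons.

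Of 21 other J-domain genes, 9 rose and 2 fell with library size alone (5513 and 1685 of all 17194 tested genes). In log2(TPM + 1) 11 rose and 1 fell (6784 and 1246 of all tested genes), but with TMM 3 rose and 7 fell. Those that rose were Dnajc5, the cysteine string protein of vesicles (0.33 ± 0.06, adjusted p = 0.000781), Dnajb13, known from motile cilia and sperm (2.02 ± 0.37, adjusted p = 0.00151, from 0.225 to 1.00 CPM to 3.03 to 3.17 CPM), and Dnajb5 (0.44 ± 0.14, adjusted p = 0.0273). The call for Dnajb5 was lost when WT/Sed replicate 1 or 3 (adjusted p = 0.0907 and 0.0662) or Cdo1KKO/Sed replicate 1 or 3 (0.0907 and 0.127) was left out. The strongest fall was in Hscb, the cochaperone of iron-sulfur cluster assembly in mitochondria, from 14.3, 15.4 and 15.7 CPM to 8.30, 9.13 and 8.63 CPM (-0.80 ± 0.10, adjusted p = 6.85e-05). Dnajb12 of the endoplasmic reticulum membrane and Dnajc19 of the mitochondrial import motor fell by 0.29 ± 0.05 and 0.37 ± 0.07 (adjusted p = 0.00105 and 0.00118), and both calls were lost in log2(TPM + 1) (adjusted p = 0.491 and 0.151), that of Dnajb12 also with library size alone (0.0642).

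Hsp90aa1 (ENSMUSG00000021270.13), the stress-responsive HSP90, was at 589.7, 579.8 and 593 CPM in WT/Sed and 679.5, 670.1 and 715 CPM in Cdo1KKO/Sed. Its Cdo1KKO/Sed libraries were all higher, with a rise of 0.23 ± 0.05 (adjusted p = 0.00314) that kept its call under every alternative run. It has 11 exons and spans 110690605 to 110702728 of chromosome 12, minus strand. The constitutive Hsp90ab1 rose too (0.14 ± 0.04, adjusted p = 0.0278), from 1222, 1259 and 1201 CPM to 1354, 1339 and 1365 CPM, a call lost in 4 of the 6 fits that left out 1 library, with adjusted p of 0.120 lacking WT/Sed replicate 1 and of 0.115, 0.0554 and 0.109 lacking Cdo1KKO/Sed replicate 1, 2 or 3. In TPM, Hsp90aa1 was 36.8%, 35.1% and 37.7% of Hsp90ab1 in WT/Sed against 38.3%, 38.2% and 40.0% in Cdo1KKO/Sed. This shift was small but without overlap, 0.09 in the log2 ratio (exact two-sided permutation p = 0.1, adjusted 0.125). The 2 transcripts share at most 33 identical bases in a row.

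Of 19 other HSP90 family and cochaperone genes, 10 fell, Hsp90ab1 rose and 8 were not called with TMM. Of all tested genes 18.5% fell, and 49.0% of those with a mean of at least 10 CPM were called in either direction. Leaving out 1 library gave 7 to 9 falls in the list. Fkbp5, the immunophilin induced by glucocorticoids, was at 208, 176 and 212 CPM in WT/Sed and 112, 114 and 109.6 CPM in Cdo1KKO/Sed (-0.83 ± 0.07, adjusted p = 5.49e-06). Cdc37l1, a relative of the kinase cochaperone Cdc37, fell by 0.63 ± 0.05 (adjusted p = 5.26e-06). Chordc1 fell by 0.48 ± 0.07 (adjusted p = 0.000201), and Trap1, the HSP90 of mitochondria, by 0.27 ± 0.06 (adjusted p = 0.00398). Both calls were lost in log2(TPM + 1) (adjusted p = 0.0531 and 0.848), that of Trap1 also with library size alone (0.164). With library size alone 2 genes of this list rose and 3 fell, and in log2(TPM + 1) 4 rose and 2 fell. Of all 17194 tested genes, 5513 and 6784 rose under these scalings, and 1685 and 1246 fell.

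Hspd1 (ENSMUSG00000025980.14), the mitochondrial chaperonin HSP60, was at 821, 807 and 844 CPM in WT/Sed and 715, 714 and 721 CPM in Cdo1KKO/Sed. The groups were apart, and the gene fell by 0.20 ± 0.05 (adjusted p = 0.00478). Library size alone gave -0.03 (adjusted p = 0.580), and log2(TPM + 1) turned the sign to 0.05 (adjusted p = 0.318). Its lid, Hspe1 or HSP10, fell by 0.24 ± 0.06 (adjusted p = 0.0112). That call was lost with library size alone (adjusted p = 0.413) and in log2(TPM + 1), where the sign turned to 0.02 (0.788). It was also lost when WT/Sed replicate 1 (0.050001) or Cdo1KKO/Sed replicate 1 or 3 (0.0513 and 0.0619) was left out. In TPM, the log2 ratio of Hspd1 to Hspe1 was 1.25, 1.13 and 1.39 in WT/Sed against 1.28, 1.23 and 1.36 in Cdo1KKO/Sed. Those values overlapped, and the difference of 0.03 gave an exact two-sided permutation p of 0.9. The genes lie head to head on chromosome 1, Hspd1 on the minus strand from 55077835 to 55088243 with 12 exons, and overlap by 112 bases. A stretch that lies in the RefSeq windows of both genes (GRCm38.p6, minus strand, chr1:55088053-55088082) is shown because it holds linked GAA and TTC units, in capitals.
Hspd1: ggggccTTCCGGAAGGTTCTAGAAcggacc

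Other mitochondrial chaperones and proteases fell with Hspd1 under TMM: 10 of 14 were called lower and none higher in edgeR. Of all tested genes 18.5% fell, and 49.0% of those with a mean of at least 10 CPM were called in either direction. For the list, DESeq2 and limma-voom gave the same counts, as did an unadjusted p under 0.05 for the rises (none), with 12 falls. Next to Hscb the smallest p were those of Spg7, a protease of the inner membrane (80.1, 78.2 and 81.7 CPM to 59.7, 61.5 and 58.0 CPM, -0.42 ± 0.05, adjusted p = 8.69e-05), Grpel2, an exchange factor (-0.37 ± 0.06, adjusted p = 0.000325), and the unfoldase Clpx (-0.34 ± 0.06, adjusted p = 0.00137). The median of the list was -0.26 with TMM and 0.00 in log2(TPM + 1), where 1 gene rose and 2 fell. With library size alone 1 rose and 4 fell, and leaving out 1 library gave 6 to 11 falls. With Hspe1 counted among the 15 chaperonin and prefoldin genes tested, 2 rose with TMM, Tcp1 (0.25 ± 0.06, adjusted p = 0.00526) and Cct3 (0.21 ± 0.05, adjusted p = 0.00501), and 5 fell, among them Pfdn1 (-0.28 ± 0.05, adjusted p = 0.00112). With library size alone 6 of these genes rose and none fell, and in log2(TPM + 1) 8 rose and none fell. Of all 17194 tested genes, 5513 and 6784 rose under these scalings, and 1685 and 1246 fell.

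The scaling thus decided part of the picture, and the plot of changes under 3 scalings shows how. The median log2 fold change of all tested genes was 0.01 with TMM, 0.18 with library size alone and 0.19 in log2(TPM + 1), and all 10 genes shifted upward with it. Relative to that median, Hspa8 and Hspd1 were lower and Dnajb1 was close to it under all 3. Hspb1, Hspa1a, Hspa1b, Bag3 and Hsp90aa1 rose under all 3, and Cryab fell under all 3. The members that fell numbered 4 with TMM, 2 with library size alone and 1 in log2(TPM + 1).

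**Figure D2:**
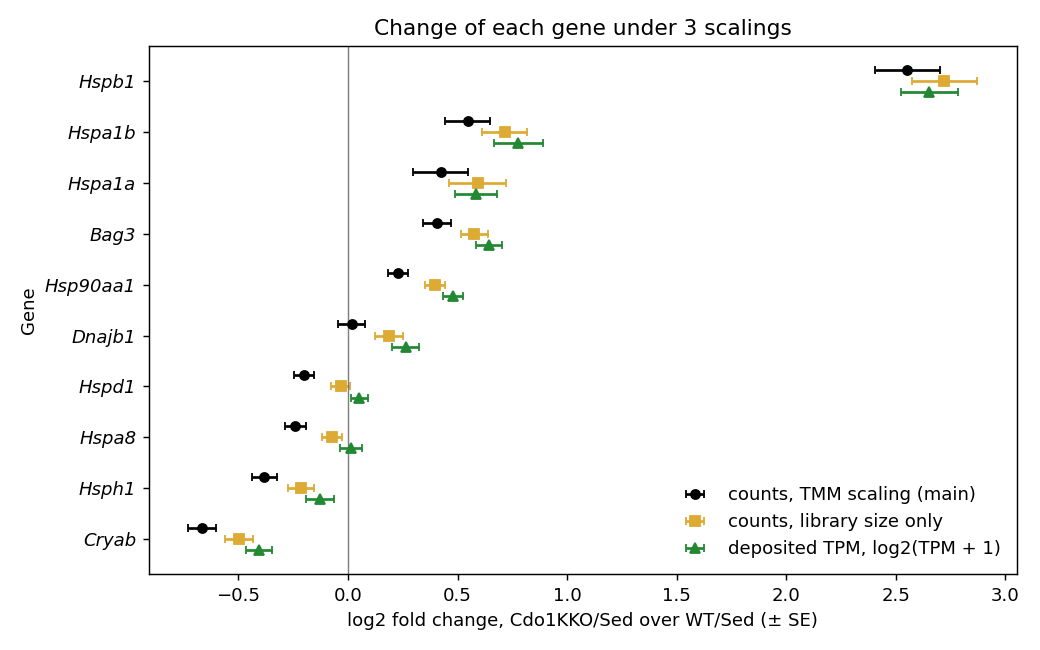
Log2 fold change ± SE of each gene, Cdo1KKO/Sed over WT/Sed, from counts with TMM scaling (black circles), counts with library size alone (yellow squares) and deposited TPM (green triangles). Hspb1 is at 2.55, 2.72 and 2.65, while Hspd1 and Hspa8 pass from below 0 with TMM to just above 0 with TPM.

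Ratios within a library are free of the scaling between libraries, and of the 5 compared, 4 were higher in every Cdo1KKO/Sed library than in any WT/Sed library. These were Hspb1 to Cryab, inducible to constitutive HSP70, Bag3 to Bag1, and Hsp90aa1 to Hsp90ab1. Each of the 4 had an exact two-sided permutation p of 0.1, adjusted 0.125. Their first genes are the members that rose, so the ratios partly restate those calls and are no separate support for them. Hspd1 to Hspe1 overlapped.

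**Figure D3:**
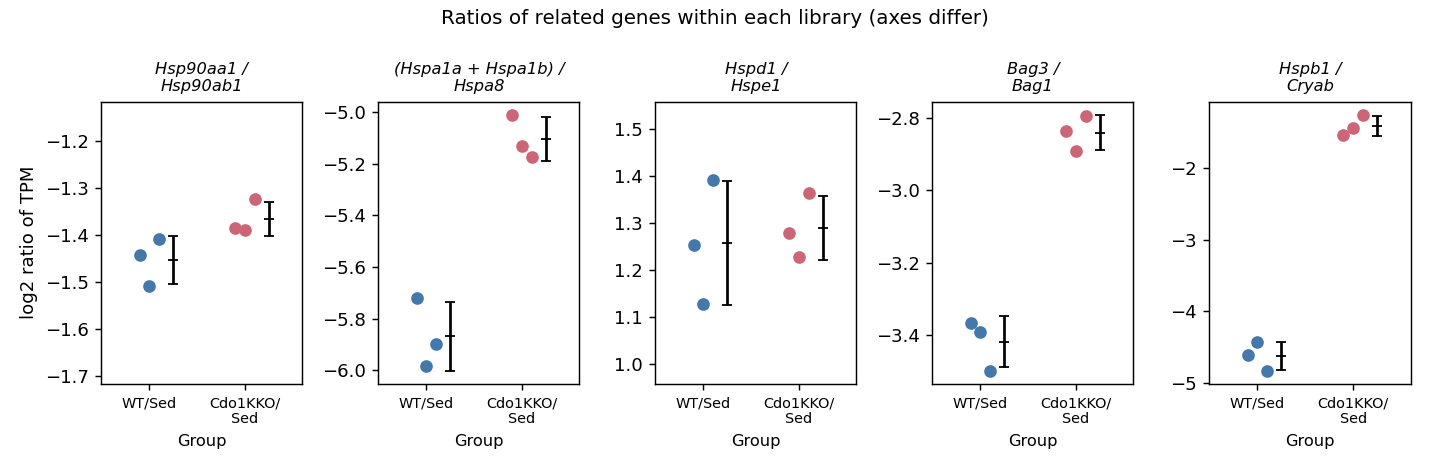
Log2 ratio of TPM for 5 pairs of related genes in each library, with WT/Sed in blue and Cdo1KKO/Sed in red and the group mean ± SD in black, each panel on its own axis. The mean ratio of Hspb1 to Cryab moves from -4.63 to -1.41, and that of Hspd1 to Hspe1 from 1.26 to 1.29.

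Levels compared per length, in TPM, ordered the 10 genes over a wide range. In WT/Sed the means ± SD (n = 3) were 1206 ± 74.3 for Hspa8, 709 ± 25.5 for Hspd1, 339 ± 8.41 for Hsp90aa1, 185 ± 13.2 for Cryab and 73.1 ± 1.21 for Hsph1. Below these came Dnajb1 at 31.4 ± 1.51, Bag3 at 28.9 ± 1.94, Hspa1b at 15.5 ± 2.54, Hspb1 at 7.60 ± 1.51 and Hspa1a at 5.19 ± 0.369. Dnajb1 and Bag3 were neighbours within the sum of their SDs, and the other neighbours stood further apart than that. In Cdo1KKO/Sed the first 5 kept their order, at 1216 ± 31.0 for Hspa8, 734 ± 12.1 for Hspd1, 474 ± 20.9 for Hsp90aa1, 139 ± 2.04 for Cryab and 66.9 ± 5.40 for Hsph1. Hspb1 came next at 52.6 ± 4.61, ahead of Bag3 at 45.6 ± 0.479, Dnajb1 at 37.9 ± 2.01, Hspa1b at 27.1 ± 1.28 and Hspa1a at 8.29 ± 0.952. Hspa8 alone made up 46.4% of the summed TPM of the 10 genes in WT/Sed and 43.4% in Cdo1KKO/Sed, and Hspb1 0.292% and 1.88%. The summed TPM was 2587, 2509.9 and 2705 in WT/Sed against 2808, 2726 and 2871 in Cdo1KKO/Sed, without overlap (exact two-sided permutation p = 0.1), but the summed CPM ran the other way, at 4050.1 to 4299.7 against 3677 to 3809.8.

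The wider set of chaperone genes, 101 distinct tested genes in 10 lists, leaned lower with TMM: 12 rose and 31 fell. Among all tested genes 18.9% rose and 18.5% fell. The median was -0.10 for the set against 0.01 for all tested genes. All 12 rises were also called with library size alone and in log2(TPM + 1). Further genes of the set were called higher under those scalings, as the counts given for the lists show. Of the 31 falls, 8 were called with library size alone and 4 in log2(TPM + 1). Those 4, Hscb, Fkbp5, Cdc37l1 and Spg7, were called under every alternative run. Among 5 tested genes of heat shock factors and their binding proteins, none rose and 1 fell with TMM. This was Hsbp1, a binding protein that restrains HSF1 (-0.23 ± 0.06, adjusted p = 0.0133). Its call was lost with library size alone (adjusted p = 0.461) and in log2(TPM + 1), where the sign turned to 0.02 (0.776). It was also lost lacking WT/Sed replicate 1 (0.0631) or Cdo1KKO/Sed replicate 2 or 3 (0.0589 and 0.0642). DESeq2 also gave 0 rises and 1 fall among these 5 genes, and none of them rose at an unadjusted p under 0.05. Hsf1 was at 21.8, 27.0 and 18.2 CPM in WT/Sed and 17.1, 19.4 and 18.2 CPM in Cdo1KKO/Sed, overlapping and not called (-0.29 ± 0.13, adjusted p = 0.113), and Hsf2 was not called either (-0.21 ± 0.08, adjusted p = 0.0596). With WT/Sed replicate 3 left out Hsf1 was called lower (adjusted p = 0.00306), and with WT/Sed replicate 2 left out so was Hsf2 (0.0253). Hsf2bp, a binding protein of Hsf2, was not called (0.15 ± 0.13, adjusted p = 0.414) but was called higher in log2(TPM + 1) (adjusted p = 0.0270). Of 18 further genes known as HSF1 targets, 3 rose (Hspb8, Tcp1 and Hsp90ab1), 3 fell (Chordc1, Fkbp4 and Hspe1) and 12 were not called with TMM. With library size alone 8 rose and 1 fell, where 5513 of all 17194 tested genes rose and 1685 fell. In log2(TPM + 1) 12 rose and none fell, where 6784 of all tested genes rose and 1246 fell.

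**Figure D4:**
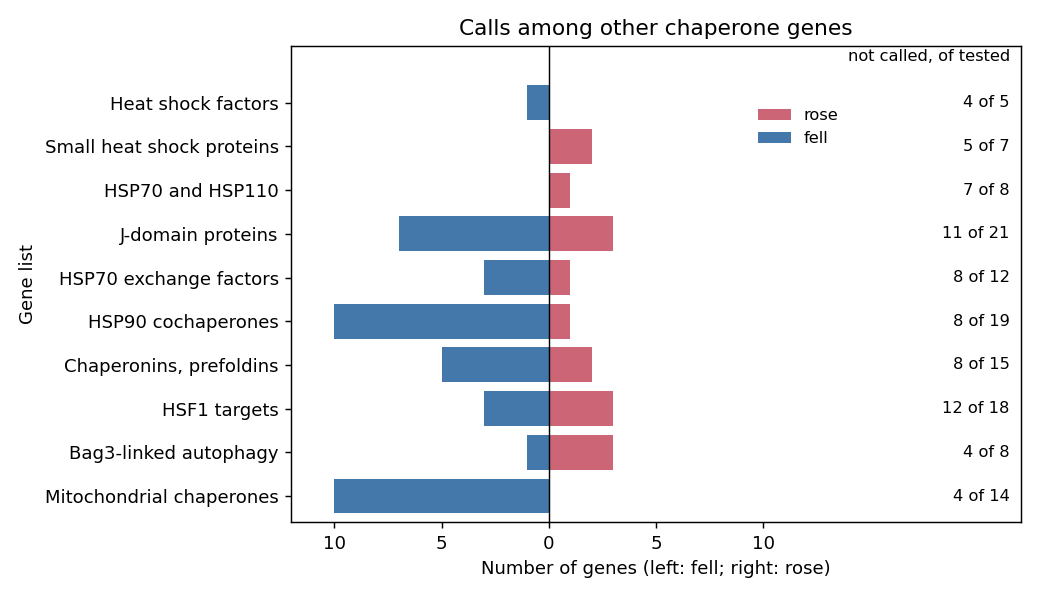
Number of genes called higher (red, right) or lower (blue, left) by edgeR with TMM scaling in each of 10 lists of other chaperone genes, with the number not called at the right edge. The mitochondrial and the HSP90 cochaperone lists each hold 10 genes that fell, and no list holds more than 3 that rose.

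Promoter windows were matched for 7 of the 10 genes in the RefSeq table, all but Cryab, Hsp90aa1 and Hspa8. The 2-unit elements GAANNTTC and TTCNNGAA, each its own reverse complement, were searched for by exact letters. Some of the 7 genes have more than 1 start, which gave 10 windows, and 7 of these 10 held at least 1 such element, against 15.1% of all 32851 windows. By gene, 6 of the 7 had such a window, the exception being Dnajb1. The 3-unit form, which contains overlapping 2-unit elements, was in the windows of Hspd1 and Hsph1. CCAAT on either strand was in 6 of the 10 windows (37.4% of all windows) and TATAAA on either strand in none (13.6%). Genes with an element included 4 that rose and 2 that fell. These matches describe letters only and show no binding.

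Other cell types moved with the groups too. Markers of red blood cells summed to 26.7 to 54.2 CPM in WT/Sed and 409.7 to 433 CPM in Cdo1KKO/Sed, with 5 of 5 higher. Neutrophil markers went from 1.57 to 3.03 CPM to 14.1 to 17.2 CPM, with 4 of 5 tested genes higher and Ly6g below 0.1 CPM in both groups on average, and macrophage markers from 93.9 to 182 CPM to 242 to 247 CPM, with 5 of 8 higher and Csf1r lower. Their part in the rise of Hspb1 and the inducible HSP70 genes was not tested. Endothelial markers summed to 129, 209 and 55.9 CPM in WT/Sed and 212, 199.7 and 205 CPM in Cdo1KKO/Sed, with none of 6 called. The Hspb1 levels of the same WT/Sed libraries were 3.57, 4.12 and 2.68 CPM, and the part of endothelial cells in its rise was not tested. Smooth muscle and pericyte markers summed to 54.9, 79.8 and 30.9 CPM against 74.4, 72.5 and 76.1 CPM, with 2 of 7 tested genes higher, Des and Pdgfrb (adjusted p = 0.0251 and 0.00422). Skeletal muscle markers were near 0, with Myh4 at 0 in every library. Of 12 immediate early genes, which respond within minutes to stress or handling, 7 rose and 1, Dusp1, fell. Among all tested genes 18.9% rose and 18.5% fell. The sum of the 12 was 315 to 425 CPM in WT/Sed and 406 to 420.1 CPM in Cdo1KKO/Sed, but it mixes both directions. Mean Dusp1 went from 126 to 44.0 CPM, while Jun and Egr1, among the 7 that rose, went from 48.3 and 15.9 to 83.7 and 53.8 CPM. The part of the immediate early genes in the changes of the heat shock genes was not tested.

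The genes most like a member over the 6 libraries were sought on log2 CPM among genes with a mean of at least 10 CPM. For Hspb1 they were Nsfl1c, a cofactor of the p97 unfoldase (Pearson r = 1.00), Surf4, a cargo receptor of the secretory pathway (0.999), and the stress cytokine Gdf15 (0.999). For Hspa1b they were Dsp, the desmosome protein desmoplakin (0.996), Morc2a (0.993) and Kctd6 (0.993), and for Hsp90aa1 Pogk (0.998), Pdia4, a folding enzyme of the endoplasmic reticulum (0.996), and Micall1 (0.995). Gdf15 was at 4.32, 4.91 and 3.72 CPM in WT/Sed and 20.5, 21.4 and 23.8 CPM in Cdo1KKO/Sed, a range close to that of Hspb1. The 6 libraries share the contrast of 2 separate groups, and 1260 genes had an r over 0.9 with Hspb1, 936 with Hspa1b and 1282 with Hsp90aa1, so these names are a description.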

How the data were processed

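The authors deposited, per the file headers, 1 table of counts per gene and 1 of TPM (length-scaled transcript levels) for 55401 genes in 6 libraries. The submitters' processing notes name fastp 0.23.4 and the builds GRCm38 and mm10, whereas an aligner, a counter, an annotation and the strandedness were not given in the sources used here. All 6 value columns matched a library, and 0 others were present. Per the labels, poly(A) RNA was the input of a VAHTS Universal V6 library kit.

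Counts were tested in R 4.3.3 with edgeR 4.0.16 (filterByExpr, TMM, robust quasi-likelihood F test of genotype, Benjamini-Hochberg over 17194 genes, threshold 0.05), after a check on simulated data. The SE is approximate, taken from the F statistic. TPM ratios were compared by exact permutation over libraries, whose smallest p is 0.1. Alternatives were RLE, upper-quartile and no scaling factors, DESeq2 1.42.0, limma-voom and limma 3.58.1 on log2(TPM + 1) and log2(TPM + 0.1), no filter, a mean of 1 CPM, a replicate block and leaving out each library. P-values measure the spread between libraries labelled as biological replicates. Counts without strand cannot separate overlapping genes on opposite strands.

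The 10 genes, the 10 chaperone lists and the 13 marker lists were chosen with earlier results of these data known. Named were these genes, the partners in ratios, Cdo1, the 4 genes of smallest p in each list, every gene of a count of 3 or fewer, and the 3 genes most like Hspb1, Hspa1b and Hsp90aa1. Of the marker genes, those named were chosen after their values were seen.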

Additional observations from a re-analysis of the deposited data

How the results depend on the processing

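Hspb1, Cryab, Hspa1b, Bag3, Hsp90aa1 and the sum of Hspa1a and Hspa1b kept direction and call under all 16 alternatives, and the count of genes that rose stayed between 4 and 6. The count of genes that fell was 2 with library size only, 1 with log2(TPM + 1) and 1 with log2(TPM + 0.1), against 4. The sign turned for Hspa8 (0.01 and 0.01) and Hspd1 (0.0519 and 0.0520) with log2(TPM + 1) and log2(TPM + 0.1), and for Dnajb1 without WT/Sed replicate 2 (-0.00566) or Cdo1KKO/Sed replicate 3 (-0.0105), within a range of -0.0105 to 0.0514 when 1 library was left out. The balance of Hspd1 to Hspe1 ranged from -0.0324 to 0.0998 when 1 library was left out. The summed level of the 10 genes was 200.9 higher in TPM and -417.5 in CPM. The replicate numbers are shared by the groups, but libraries of 1 number did not deviate together (correlations -0.002, 0.010 and 0.013). A replicate block gave 5 rises and 4 falls among the 10 genes, with Hspa1a at an adjusted p of 0.0329, and 3117 rises and 3029 falls over all genes, and Stub1 lost its call under it (0.0529). The cause of these differences was not tested.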
